A study of Mus musculus with 11 samples.

Results

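The 8 Krüppel-like factors described here are Klf3, Klf4, Klf6, Klf7, Klf9, Klf10, Klf11 and Klf13, read as 8 of the 52997 genes of a count table from visceral adipose tissue (VAT) and lymphoid Treg cells. Klf4 was chosen by its counts in these same libraries, for being higher in VAT, so its values are a description and no test is given for it. The other 7 members are of the same family and were listed with earlier results of these data known. Klf2 and the rest of the family, described further below, were left aside. All 8 passed the filter on low counts, a mean above 10 in at least 1 group, but Klf4 passed it only through its 2 VAT groups and Klf9 through 3 of the 4 groups.

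Each of the 11 libraries was made by Smart-seq2, which amplifies polyadenylated mRNA, from 1000 sorted Treg cells. The cells came from C57BL/6 mice with the vTreg53 TCR transgene, which by the study's methods also carried a Foxp3-GFP reporter, and had been moved into CD45.1 recipients 6 weeks before the first injection. Male mice of 15 weeks gave cells from pooled spleen and lymph nodes (Spl/LN) or from VAT, after adjuvant alone (3 Spl/LN and 2 VAT libraries) or after the same adjuvants with the peptide Fat1562 (3 Spl/LN and 3 VAT libraries), primed and then boosted 1 week later. The labels call the controls unimmunized and name PBS, where the methods describe adjuvant alone, and the name adjuvant alone is kept here. Every group thus shares 1 transgenic TCR, that of a single VAT Treg clone, and the transfer into a host that keeps its own T cells. By the methods VAT was digested with collagenase, while no digestion is described for Spl/LN, so tissue and digestion cannot be told apart in any VAT against Spl/LN comparison. The methods call the replicates biological and their cells those of recipient mice, but nothing in the labels says which mouse or mice gave each library.

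Krüppel-like factors are transcription factors whose zinc fingers at the carboxyl end bind GC-rich DNA and CACCC boxes, much like the related SP factors. Their amino-terminal parts differ and decide which partners they bring to a promoter. Klf3 binds the corepressor CtBP, Klf9, Klf10, Klf11 and Klf13 bind the corepressor Sin3A, and Klf4, Klf6 and Klf7 carry acidic activating stretches. In T cells, Klf2 is known for keeping up the receptors that let cells circulate, Klf4 for restraining division, Klf10 for its induction by TGF-β and a role in Treg cells, and Klf13 for driving late expression of the chemokine gene Ccl5.

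The promoter stretches of Klf3, Klf4, Klf6 and Klf13 are printed because these 4 genes carry the largest fall, the largest rise and the calls after Fat1562 described below. They were read from RefSeq's promoter table (GRCm38.p6), in which 7 of the 8 members had an entry. Each runs 5′ to 3′ in the direction of the gene and ends before the first start in RefSeq or GENCODE vM21, which for Klf3 leaves 117 of the 250 bases upstream of the RefSeq start and for Klf6 243. Capitals mark CACCC, or GGGTG where the box lies on the opposite strand.
Klf3, chr5:64803271-64803387, plus strand: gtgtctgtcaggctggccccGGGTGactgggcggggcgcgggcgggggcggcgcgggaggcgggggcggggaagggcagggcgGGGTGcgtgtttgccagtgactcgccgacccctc
Klf4, chr4:55532476-55532725, minus strand: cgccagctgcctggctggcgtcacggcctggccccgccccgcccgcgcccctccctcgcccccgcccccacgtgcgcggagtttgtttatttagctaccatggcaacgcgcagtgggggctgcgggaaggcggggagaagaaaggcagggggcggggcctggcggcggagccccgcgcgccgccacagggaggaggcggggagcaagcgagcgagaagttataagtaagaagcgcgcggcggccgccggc
Klf6, chr13:5861239-5861481, plus strand: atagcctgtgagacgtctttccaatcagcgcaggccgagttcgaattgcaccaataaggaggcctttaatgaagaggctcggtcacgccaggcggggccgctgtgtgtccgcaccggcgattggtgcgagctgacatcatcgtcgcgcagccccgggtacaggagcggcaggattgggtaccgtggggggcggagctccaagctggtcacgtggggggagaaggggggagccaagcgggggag
Klf13, chr7:63938916-63939165, minus strand: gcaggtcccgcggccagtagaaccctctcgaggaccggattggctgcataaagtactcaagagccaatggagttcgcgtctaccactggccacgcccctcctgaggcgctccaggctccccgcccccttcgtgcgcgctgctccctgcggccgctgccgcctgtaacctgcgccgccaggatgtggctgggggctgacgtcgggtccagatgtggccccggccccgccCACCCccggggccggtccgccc

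The CACCC letters, on either strand, were found 5 times in the whole window of 250 bases of Klf3, 2 of them in the printed stretch, and 3 times in that of Klf7. They were found 1 time each for Klf9 and Klf13, and at no place in the windows of Klf4, Klf6 and Klf11. The window of Klf7 lies wholly inside the gene as drawn in GENCODE vM21, so 0 of its bases lie before the first start there. Of 32851 promoter windows of this length, 52% held the letters at least 1 time. The GC box GGGCGG was found on either strand 6 times for Klf3, 4 times each for Klf4 and Klf11, 3 times for Klf13, and 1 time each for Klf6 and Klf7, with no match for Klf9, against 32.7% of all windows with a match. In the printed stretches of Klf3 and Klf13 a GC box shares a base with a marked CACCC box. These are matches of letters and not sites shown to be bound.

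The 11 libraries held 4490242 to 6570057 counts each, and no library pair agreed within sampling noise. Foxp3 stood at 6747 to 10250 normalized counts and Cd4 at 2114 to 3518 over all libraries, where a normalized count is a count scaled to the mean library size with TMM factors. Of the markers of other cells, the macrophage gene Adgre1 reached at most 8.01 and Cd8a at most 6.39 in any library. Other genes of the macrophage and monocyte list went higher in single Spl/LN libraries. Lyz2 reached 70.4 with adjuvant alone and Itgam 76.3 with Fat1562. Cd8b1, the other gene of the CD8 T cell list, had group means of 90 to 182, and the B cell gene Cd79b had group means of 66.4 to 164. The VAT libraries with adjuvant alone enter both a tissue comparison and a peptide comparison, so results of these comparisons are not independent of each other.

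Seen per kb of exon, so that genes can be set beside each other, Klf13, Klf6 and Klf10 made up most of the Krüppel-like factor level in every group. In Spl/LN with adjuvant alone the order was Klf13 (249 ± 31.6 normalized counts per kb, SD, n = 3), Klf6 (183 ± 8.41), Klf10 (115 ± 41.4), Klf3 (33.9 ± 4), Klf11 (23.1 ± 5.34), Klf7 (18.9 ± 3.56), Klf9 (2.11 ± 0.746) and Klf4 (0.342 ± 0.592). In VAT with adjuvant alone it was Klf6 (618 ± 96 per kb, SD, n = 2), Klf13 (371 ± 5.86), Klf10 (155 ± 9.39), Klf7 (54.5 ± 10.6), Klf4 (53.3 ± 19.2), Klf11 (31.7 ± 2.75), Klf9 (4.14 ± 1.46) and Klf3 (3.79 ± 1.54). Klf3 thus moved from the fourth place to the last, and Klf4 from the last to the fifth. Neighbours whose libraries overlapped were Klf11 and Klf7 in both Spl/LN groups, Klf13 and Klf6 in Spl/LN with Fat1562, and in VAT with adjuvant alone Klf7 and Klf4, and Klf9 and Klf3.

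Over all 17 family genes in the table, the summed level was 690 ± 74.7 per kb in Spl/LN and 1370 ± 106 in VAT with adjuvant alone, and 784 ± 19.7 in Spl/LN and 881 ± 94.1 in VAT with Fat1562 (SD). Klf6 made up 26.8% of that sum in Spl/LN and 45% in VAT with adjuvant alone, and 30.2% and 47.3% with Fat1562. The share of Klf13 was 36.1% and 27.2% with adjuvant alone and 32.8% and 26.4% with Fat1562. Klf3 fell from a share of 4.99% in Spl/LN to 0.282% in VAT with adjuvant alone. These shares are given as descriptions, with no test.

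**Figure D1:**
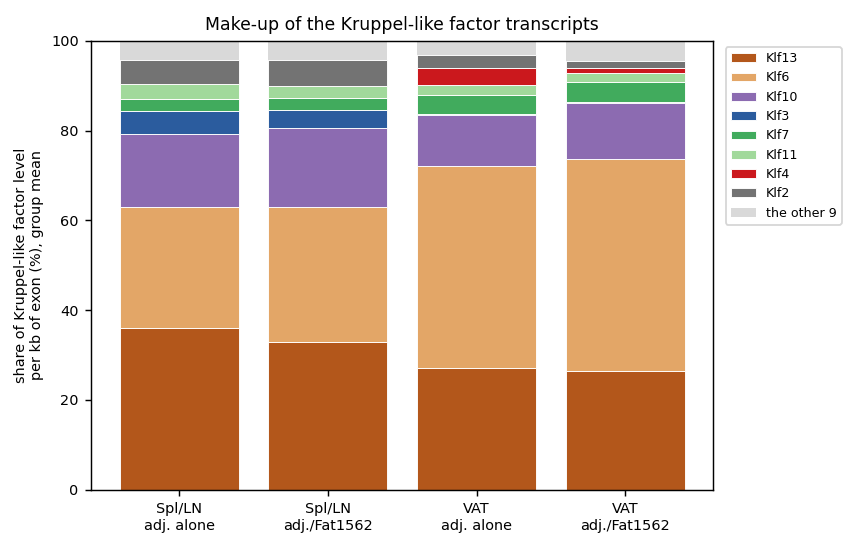
Stacked bars show the share of each gene in the summed Krüppel-like factor level per kb of exon (y axis, percent, mean over the libraries of a group) for the 4 groups on the x axis. Klf6 made up 45% and 47.3% in the VAT groups against 26.8% and 30.2% in the Spl/LN groups, and the Klf3 band, 4.99% and 3.99% in Spl/LN, was 0.282% and 0.299% in VAT.

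Klf3, the member that recruits CtBP and is known as a repressor (chr5:64803388-64832901, plus strand, GENCODE vM21 on GRCm38), was the member that fell most in VAT. Its normalized counts were 433, 359 and 352 in the Spl/LN libraries and 30.4 and 54.9 in the VAT libraries with adjuvant alone. With Fat1562 they were 384, 336 and 335 in Spl/LN and 37.1, 15.3 and 38.3 in VAT. All 6 Spl/LN libraries thus lay above all 5 VAT libraries, with no overlap. The level was 9.02-fold lower in VAT with adjuvant alone (log2 fold change −3.17, SE 0.30, adjusted p = 7.67e-07 by edgeR's quasi-likelihood test with Benjamini-Hochberg adjustment over 12932 genes). With Fat1562 it was 11.6-fold lower (log2 −3.53, SE 0.27, edgeR adjusted p = 5.57e-08). Klf3 shares 404 exon bases with Gm20033 on the opposite strand, and whether the counting used strand is not stated. Gm20033 itself had at most 12 counts in any library.

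In bulk libraries such as these, fewer cells that express a gene and less RNA of it per cell cannot be told apart, which holds for every level given here. Klf8 and Klf12, the other members known to bind CtBP, did not pass the test in either tissue comparison. Klf8 was at 21.5 ± 8.39 in Spl/LN and 42 ± 6.51 in VAT with adjuvant alone, and Klf12 at 27.6 ± 6.74 and 23.8 ± 0.11 (SD, n = 3 and 2).

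Klf6, an activator first known from growth and injury responses (chr13:5861482-5870394, plus strand), was the most abundant member in VAT per kb of exon. Its normalized counts were 809, 836 and 763 in Spl/LN and 3011 and 2415 in VAT with adjuvant alone. With Fat1562 they were 1106, 965 and 1051 in Spl/LN and 2242, 1461 and 1830 in VAT. Every VAT library lay above every Spl/LN library, and the 3 VAT libraries with Fat1562 all lay below the 2 with adjuvant alone. Klf6 was 3.38-fold higher in VAT with adjuvant alone (log2 1.76, SE 0.14, edgeR adjusted p = 9.46e-08). With Fat1562 it was 1.77-fold higher in VAT (log2 0.82, SE 0.13, edgeR adjusted p = 0.000242).

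Klf7, its close relative, best known from neurons and early lymphoid cells (chr1:64029447-64122282, minus strand), also rose in VAT. It was at 146, 130 and 186 normalized counts in Spl/LN and at 382 and 504 in VAT with adjuvant alone. With Fat1562 it was at 174, 171 and 164 in Spl/LN and at 333, 278 and 314 in VAT. Here too the 5 VAT libraries lay above the 6 Spl/LN libraries. The rise was 2.87-fold with adjuvant alone (log2 1.52, SE 0.18, edgeR adjusted p = 1.24e-05) and 1.82-fold with Fat1562 (log2 0.86, SE 0.17, edgeR adjusted p = 0.0018). Of the 38-base stretches of the Klf7 transcripts, 38.5% also lie in other annotated genes, mainly Gm26649, which overlaps 3196 exon bases on the opposite strand. Gm26649 had 0 counts in every library, and how reads in the overlap were assigned is not stated, so the level of Klf7 is uncertain to that extent.

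**Figure D2:**
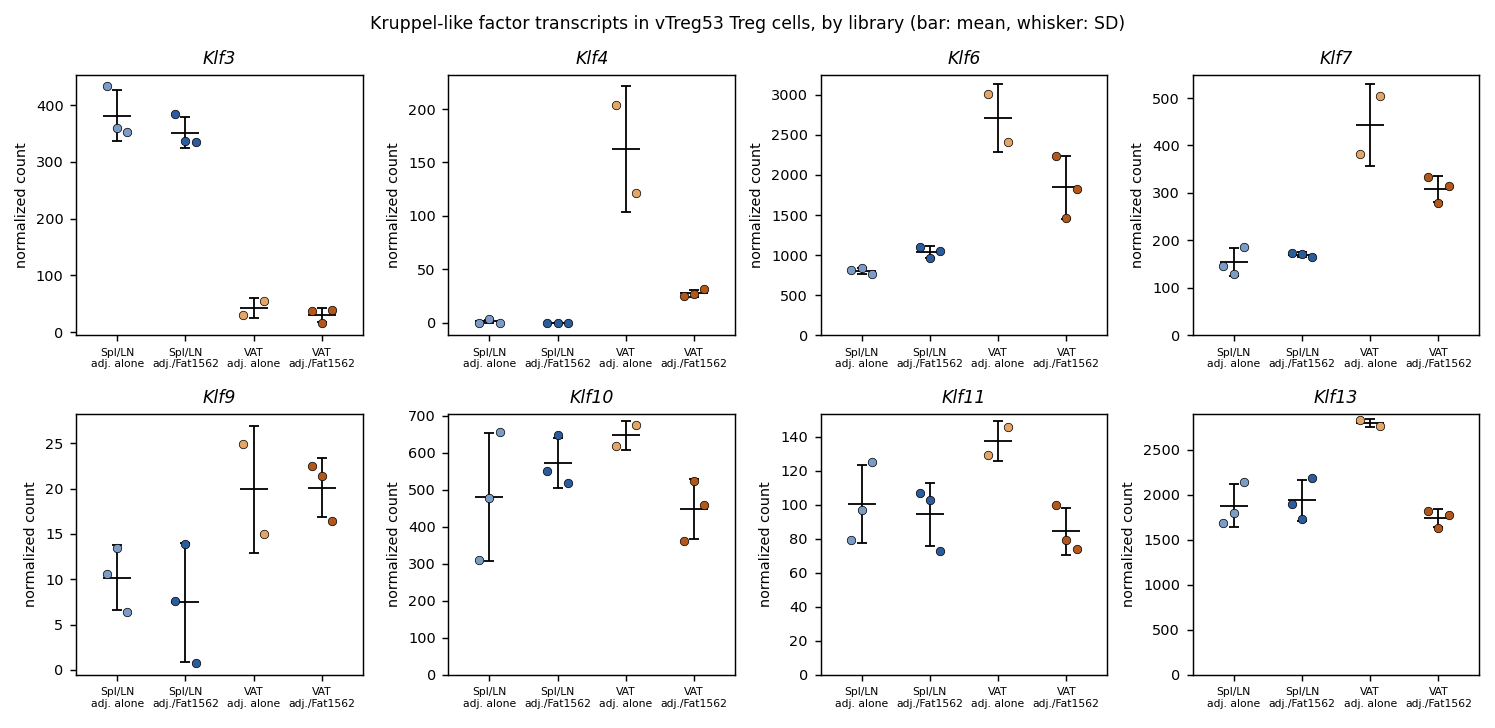
Points are normalized counts (y axis, linear, 1 panel per gene) in each of the 11 libraries, by group on the x axis, with the group mean as a bar and the SD as a whisker. Klf3 is low and Klf4, Klf6 and Klf7 are high in the VAT libraries, and Klf13 stands at 2829 and 2766 in VAT with adjuvant alone against 1632 to 2186 in the other 9 libraries.

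Klf4, known as a factor of epithelia, monocytes and pluripotent cells and as a brake on T cell division (chr4:55527143-55532466, minus strand), was close to absent in Spl/LN. It had 0, 3 and 0 counts in the Spl/LN libraries with adjuvant alone and 0 in each of the 3 with Fat1562. In VAT with adjuvant alone it had 188 and 97 counts, or 204 and 121 normalized counts. In VAT with Fat1562 it had 22, 26 and 34 counts, or 24.7, 26.5 and 31 normalized counts. The 4 groups did not overlap except that the 2 Spl/LN groups shared values of 0, and this separation is what the gene was chosen for.

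Summed over libraries, 285 counts in VAT stood against 3 in Spl/LN with adjuvant alone, a ratio of 170 per effective library size with a 95% exact interval of 57.7 to 831 that covers counting error only. With Fat1562, the mean level in VAT was at least 9.13-fold higher than 3 counts per library, the limit that a count of 0 allows in Spl/LN. Within VAT, the level with adjuvant alone was 5.99-fold that with Fat1562 (95% exact interval 4.67 to 7.75, counting error only). The 2 VAT libraries with adjuvant alone differed from each other by more than the whole range of the 3 with Fat1562, as their SD of 58.6 against 3.24 shows.

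Klf4 is abundant in macrophages, so the markers of these and other cells are given beside it. The 8 macrophage and monocyte genes summed to 32.4 and 49.9 normalized counts in the 2 VAT libraries with adjuvant alone and to 37.7 to 83.2 in VAT with Fat1562, against 45.8 to 142 and 94 to 113 in the Spl/LN groups. The genes of this list did not all move the same way. In the 2 VAT libraries with adjuvant alone, where Klf4 was highest, Adgre1 was at 0 in both, Csf1r at 1.08 and 0, Lyz2 at 15.2 and 13.7, C1qa at 6.51 and 6.24, and Itgam at 0 and 6.24. In VAT with Fat1562, where Klf4 was lower, Lyz2 was at 1.12, 2.04 and 5.47, C1qa at 1.12, 0 and 0.912, and Itgam at 59.6, 12.2 and 15.5. Within VAT, Lyz2 and C1qa were thus higher and Itgam lower where Klf4 was higher. Cd68 had means of 15 ± 12.5 in VAT with adjuvant alone and 17.3 ± 1.54 with Fat1562 (SD, n = 2 and 3). Mrc1 had 1.63 and 2.78, and Fcgr1 was at 0 in both. The spread of Cd68 between the 2 libraries with adjuvant alone was thus wide, and the part of such RNA in the level of Klf4 was not tested.

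The lists of other cells differed in direction. In the VAT libraries with adjuvant alone 5 stromal genes summed to 16.3 and 26.2, 4 adipocyte genes to 0 and 6.24, and 3 neutrophil genes to 1.08 and 0, with 18.3 to 36.5, 0 to 10 and 1.04 to 5.79 in Spl/LN. The 4 endothelial genes summed to 242 and 299 against 464 to 513, of which Pecam1, also a gene of leukocytes, gave most, while Cdh5 was at 1.08 and 2.49. B cell genes summed to 97.6 and 160 against 121 to 226, and NK cell and ILC genes to 2.17 and 1.25 against 0.965 to 6.39. The 2 CD8 T cell genes, nearly all of it Cd8b1, summed to 171 and 193 in VAT with adjuvant alone, above the 99 to 124 of Spl/LN and the 91.6 to 137 of VAT with Fat1562, as Klf4 was. The sum of the 4 dendritic cell genes was higher in VAT, 109 and 120 against 60.8 to 78.1 with adjuvant alone and 120 to 226 against 48.8 to 56.6 with Fat1562. With adjuvant alone Xcr1 had means of 13.6 in Spl/LN and 66.9 in VAT, while Zbtb46 had 54.2 and 45.1. With Fat1562 both were higher in VAT (15.9 and 60, and 35 and 107). The part of these cells in any result was not tested.

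Klf13 (chr7:63886351-63938915, minus strand) was the most abundant member that binds Sin3A. Its normalized counts were 1692, 1798 and 2147 in Spl/LN and 2829 and 2766 in VAT with adjuvant alone. With Fat1562 they were 1903, 1732 and 2186 in Spl/LN and 1825, 1632 and 1781 in VAT. The 2 VAT libraries with adjuvant alone lay above the other 9, while the VAT and Spl/LN libraries with Fat1562 overlapped. Klf13 was 1.49-fold higher in VAT with adjuvant alone (log2 0.57, SE 0.11, edgeR adjusted p = 0.00183). With Fat1562 the difference was not called (log2 −0.15, SE 0.10, edgeR adjusted p = 0.377).

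Klf10, induced by TGF-β (chr15:38291463-38300706, minus strand), was at 309, 477 and 655 in Spl/LN and 618 and 674 in VAT with adjuvant alone. With Fat1562 it was at 549, 648 and 517 in Spl/LN and 362, 523 and 458 in VAT. The groups overlapped in both comparisons, and neither difference was called (log2 0.43, SE 0.22, edgeR adjusted p = 0.224, and log2 −0.35, SE 0.20, adjusted p = 0.285). The spread in Spl/LN with adjuvant alone was wide, with an SD of 173. Without the library at 655, Klf10 was called higher in VAT (log2 0.72, edgeR adjusted p = 0.0167, against 0.0167 to 0.538 over the 19 alternatives run).

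Klf11, the other member known from TGF-β (chr12:24651274-24662789, plus strand), was at 79.1, 96.9 and 125 in Spl/LN and 129 and 146 in VAT with adjuvant alone. With Fat1562 it was at 107, 103 and 72.9 in Spl/LN and 100, 79.4 and 73.8 in VAT. It did not pass the test between the tissues with adjuvant alone (log2 0.45, SE 0.27, edgeR adjusted p = 0.284), where the libraries did not overlap, nor with Fat1562 (log2 −0.16, SE 0.24, adjusted p = 0.745), where they did.

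Klf9, a gene switched on by glucocorticoid and thyroid hormones (chr19:23141226-23168134, plus strand), was the lowest of the tested members in Spl/LN. It was at 10.6, 13.5 and 6.39 normalized counts in Spl/LN and 24.9 and 15 in VAT with adjuvant alone. With Fat1562 it was at 7.63, 13.9 and 0.801 in Spl/LN and 22.5, 21.4 and 16.4 in VAT. The VAT libraries lay above the Spl/LN libraries, but by a few counts, and neither difference was called (log2 0.97, SE 0.76, edgeR adjusted p = 0.446, and log2 1.46, SE 0.71, adjusted p = 0.197). The standard errors of these differences were the widest of the tested members.

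Of the 7 tested members, 3 were called higher and 1 lower in VAT with adjuvant alone, where 9.09% of all 12932 genes were called higher and 7.18% lower. With Fat1562, 2 were called higher and 1 lower, against 8.26% and 6.73% of all genes. The median log2 fold change of the 7 was 0.57 with adjuvant alone, beside −0.03 over all genes, and −0.15 with Fat1562, beside −0.01. None of these 7 calls was lost under any of the 19 alternatives run. Since the members were listed with earlier results of these data known, their counts and medians beside all genes are descriptions. Of the 4 tested family genes outside the list, 0 were called between the tissues with adjuvant alone.

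**Figure D3:**
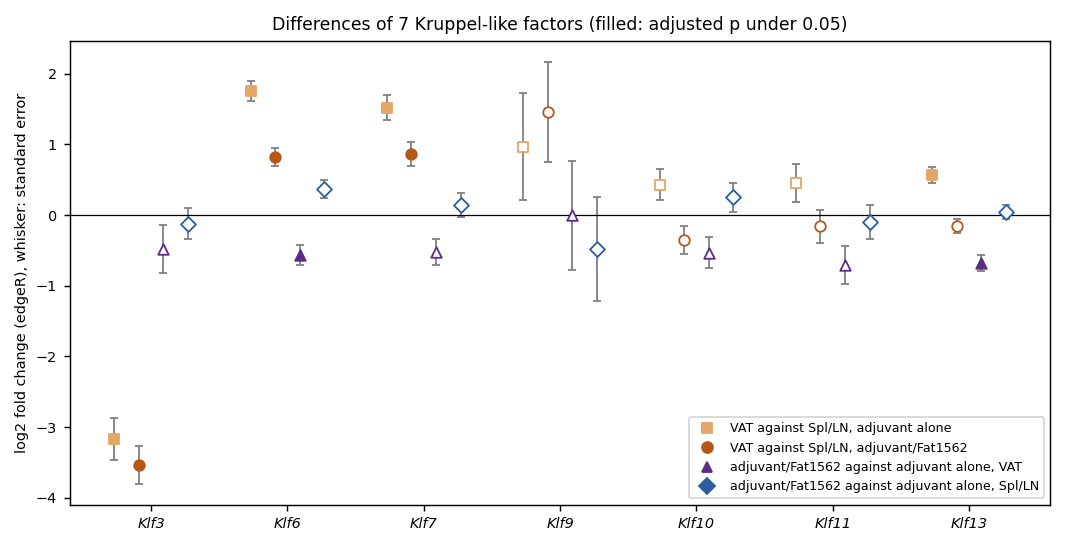
Symbols give edgeR's log2 fold change (y axis) with its standard error as a whisker for the 7 tested members (x axis) in the 4 comparisons, filled where the adjusted p was under 0.05. Klf3 lies at −3.17 and −3.53 in the tissue comparisons, Klf6 and Klf7 lie above 0.8 in them, and in VAT the Fat1562 comparison is filled only for Klf6 (−0.56) and Klf13 (−0.68).

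In VAT the members called after Fat1562 were both lower. Klf13 was 1.6-fold lower in VAT with Fat1562 than with adjuvant alone (log2 −0.68, SE 0.11, edgeR adjusted p = 0.00102), from 2829 and 2766 to 1825, 1632 and 1781. Klf6 was 1.47-fold lower (log2 −0.56, SE 0.14, edgeR adjusted p = 0.0201). The call of Klf6 was lost without the first VAT library with adjuvant alone (log2 −0.39, edgeR adjusted p = 0.269), and without replicate 2 or replicate 3 of VAT with Fat1562 (adjusted p = 0.0908 and 0.0524), within a range of 0.00017 to 0.269 over the 19 alternatives. That of Klf13 held in all 19, with an adjusted p of at most 0.0152.

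The other tested members did not pass the test in VAT. The log2 fold changes were −0.71 (SE 0.27) for Klf11, −0.53 (SE 0.22) for Klf10, −0.52 (SE 0.18) for Klf7, −0.48 (SE 0.34) for Klf3 and 0.00 (SE 0.77) for Klf9, with edgeR adjusted p from 0.0933 for Klf7 up. Klf7, Klf10 and Klf11 did not overlap between the 2 VAT groups. The share of all genes without overlap was not counted, and with 2 libraries against 3 such a separation is weak. Klf7 was called without replicate 3 of Spl/LN with adjuvant alone (edgeR adjusted p = 0.0434, range over the alternatives 0.0434 to 0.565). Of the 7 tested members, 0 were called higher and 2 lower, where 4.33% of all genes were called higher and 3.97% lower, and their median was −0.53 beside 0.01 over all genes. Klf4, described above, was also lower in all 3 VAT libraries with Fat1562.

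In Spl/LN, 0 of the 7 were called after Fat1562 by edgeR's quasi-likelihood test, where 3.98% of all genes were called in either direction. 1 of them, Klf6, had an unadjusted p under 0.05 (log2 0.37, SE 0.13, adjusted p = 0.126), with 1106, 965 and 1051 against 809, 836 and 763. It was called only with no filter on low counts (edgeR adjusted p = 0.027, range over the 19 alternatives 0.027 to 0.299), and the other tools, DESeq2 and limma on quantile-normalized values, called 0. The remaining log2 fold changes ran from −0.48 for Klf9 to 0.25 for Klf10.

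The question of whether Fat1562 acted differently in the 2 tissues was put to the interaction term, the change in VAT minus the change in Spl/LN on the log2 scale. It was called for Klf6 (−0.93, SE 0.19, edgeR adjusted p = 0.0105), which fell by 0.56 in VAT and stood at 0.37 in Spl/LN, and for Klf13 (−0.73, SE 0.15, adjusted p = 0.0126), which fell by 0.68 in VAT and stood at 0.05 in Spl/LN. Both calls were lost without the first VAT library with adjuvant alone, at −0.76 (edgeR adjusted p = 0.0853) and −0.71 (adjusted p = 0.0597). Of all tested genes, 2.02% were called with a lower effect in VAT, against 2 of these 7. Klf10 (−0.78, SE 0.30, adjusted p = 0.183), Klf7 (−0.66, SE 0.25, adjusted p = 0.173), Klf11 (−0.61, SE 0.36), Klf3 (−0.36, SE 0.40) and Klf9 (0.48, SE 1.05) were not called by edgeR. Klf10 was called without replicate 3 of Spl/LN with adjuvant alone (−1.07, edgeR adjusted p = 0.0212, range over the alternatives 0.0125 to 0.382).

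Among the rest of the family, Klf2, Klf8, Klf12 and Klf16 were tested, and the other 5 had at most 9 counts in all libraries together. None of the 4 was called between the tissues with adjuvant alone. Klf2 was the only 1 called elsewhere, lower in VAT with Fat1562 (log2 −1.72 against Spl/LN, edgeR adjusted p = 0.000881, and −1.47 against VAT with adjuvant alone, adjusted p = 0.0114). It was at 70.4 ± 7.81 and 25.1 ± 8.48 normalized counts in the VAT groups (SD, n = 2 and 3). Its interaction of tissue and peptide was called too (−1.79, SE 0.45, edgeR adjusted p = 0.0341). Klf16, a further member that binds Sin3A, was at 49.4 ± 6.18 in Spl/LN and 73.7 ± 0.101 in VAT with adjuvant alone. Of the 9 SP factors, which bind the same GC boxes, 4 were tested and 0 were called in any of the 5 comparisons by edgeR.

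Of 20 genes of corepressors and coactivators that these factors recruit and of ligases that mark them for breakdown, 19 were tested. In VAT with adjuvant alone 3 of the 19 were called higher and 0 lower (median log2 0.08), beside 9.09% and 7.18% of all genes, and with Fat1562 1 higher and 0 lower, beside 8.26% and 6.73%. Ctbp2, a gene of the corepressor CtBP that Klf3 binds, was higher with adjuvant alone (log2 2.01, SE 0.64, edgeR adjusted p = 0.0385). With Fat1562 it was higher too (2.17, SE 0.61, adjusted p = 0.0218). Ctbp1, the other CtBP gene of the list, stood at −0.12 and −0.13 and was not called. Ctbp2 was the scarcer gene, and its Spl/LN levels lay near the filter on low counts. With Fat1562 its means were 8.32 in Spl/LN and 37 ± 20.8 in VAT (SD, n = 3). In VAT with adjuvant alone Ctbp2 had a mean of 43. Ctbp1 had means of 259 to 302 over the 4 groups. Ncor1, a further corepressor gene, was called with adjuvant alone (0.50, edgeR adjusted p = 0.00161). Sin3a and Sin3b, the partners of Klf9, Klf10, Klf11 and Klf13, stood at −0.26 and 0.12 and were not called. After Fat1562, 0 of the 19 were called in VAT and 0 in Spl/LN.

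Of the TGF-β genes, the pathway for which Klf10 and Klf11 are named, 16 of 17 were tested. In VAT with adjuvant alone 4 were called higher and 2 lower (median log2 0.10), and with Fat1562 5 higher and 1 lower (median 0.04), beside 9.09% and 7.18%, and 8.26% and 6.73%, of all genes. The inhibitor Skil (log2 1.34, edgeR adjusted p = 1.79e-05) and the corepressor Tgif1 (2.55, adjusted p = 3.22e-10) rose with adjuvant alone. The other genes called higher there were Tgfb1 (1.07, edgeR adjusted p = 0.00528) and Smad7 (adjusted p = 0.00469). Itgae, whose transcription TGF-β turns on, fell with adjuvant alone (−1.59, edgeR adjusted p = 1.72e-07). The other gene called lower there was Lrrc32. With Fat1562 the difference of Itgae between the tissues was not called (−0.25, edgeR adjusted p = 0.171). After Fat1562 in VAT, 2 were called higher and 0 lower, beside 4.33% and 3.97% of all genes. These were Itgb8 (1.85, adjusted p = 1.17e-05) and Lrrc32 (2.08, adjusted p = 1.16e-06), which free and hold latent TGF-β, beside −0.53 for Klf10 and −0.71 for Klf11, neither of them called.

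Of the glucocorticoid response genes, of which Klf9 is a known companion, 10 of 12 were tested. In VAT 6 were called higher and 1 lower with adjuvant alone (median log2 1.28), and 6 higher and 2 lower with Fat1562 (median 0.87), against the same 9.09% and 7.18%, and 8.26% and 6.73%, over all genes. Dusp1 (4.19, edgeR adjusted p = 3.07e-12), Per1 (2.24, adjusted p = 3.28e-09) and the receptor gene Nr3c1 (1.53, adjusted p = 9.72e-06) were among the higher genes with adjuvant alone. Fkbp5, a sensitive target of the hormone, stood at 0.16, Sgk1 at 0.41 and Ddit4 at −0.08, and none of them was called. Txnip was the gene called lower (−0.90, edgeR adjusted p = 0.00357). With Fat1562, Fkbp5 was among the genes called lower in VAT than in Spl/LN (−0.89, edgeR adjusted p = 0.00904). After Fat1562 in VAT 1 was called higher and 5 lower (median −0.50), where 4.33% and 3.97% of all genes were. Klf9 itself was called in none of these comparisons by edgeR.

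The immediate early genes, which cells transcribe within minutes of a stimulus, cell isolation included, are given beside Klf4 and Klf6. The 15 genes of this list summed to 8566 to 9134 normalized counts in Spl/LN and to 80000 and 92258 in VAT with adjuvant alone, and to 7916 to 9069 and 34452 to 40595 with Fat1562. In VAT 12 of 15 were called higher and 1 lower with adjuvant alone (median log2 2.87), and 12 higher and 2 lower with Fat1562 (median 1.11), beside 9.09% and 7.18%, and 8.26% and 6.73%, of all genes. After Fat1562 in VAT 0 were called higher and 9 lower (median −1.04), beside 4.33% and 3.97% of all genes, and the interaction was called for 1 with a higher and 5 with a lower effect in VAT, beside 1.7% and 2.02%. Atf3, for example, had 535 and 238 normalized counts in VAT with adjuvant alone, 50.6, 14.2 and 25.5 with Fat1562, and at most 0.965 in Spl/LN.

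The order of the groups was thus the same for this sum as for Klf4, highest in VAT with adjuvant alone, then VAT with Fat1562, then Spl/LN. For Klf6 it was the same in VAT but not in Spl/LN, where Klf6 stood at 809, 836 and 763 with adjuvant alone and at 1106, 965 and 1051 with Fat1562, while the sum did not rise. The part of this response, and of tissue digestion, in the levels of Klf4 and Klf6 was not tested. Of the 10 heat shock genes, 3 were called higher in VAT with adjuvant alone and 5 with Fat1562, with 0 lower in both (9.09% and 8.26% of all genes were called higher). After Fat1562, 0 were called in VAT and 3 were called higher in Spl/LN, where 2.58% of all genes were. Their sums were 8727 to 9294 in Spl/LN and 14474 and 15551 in VAT with adjuvant alone, with no overlap, and 9598 to 16850 and 12323 to 20533 with Fat1562, where they overlapped.

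**Figure D4:**
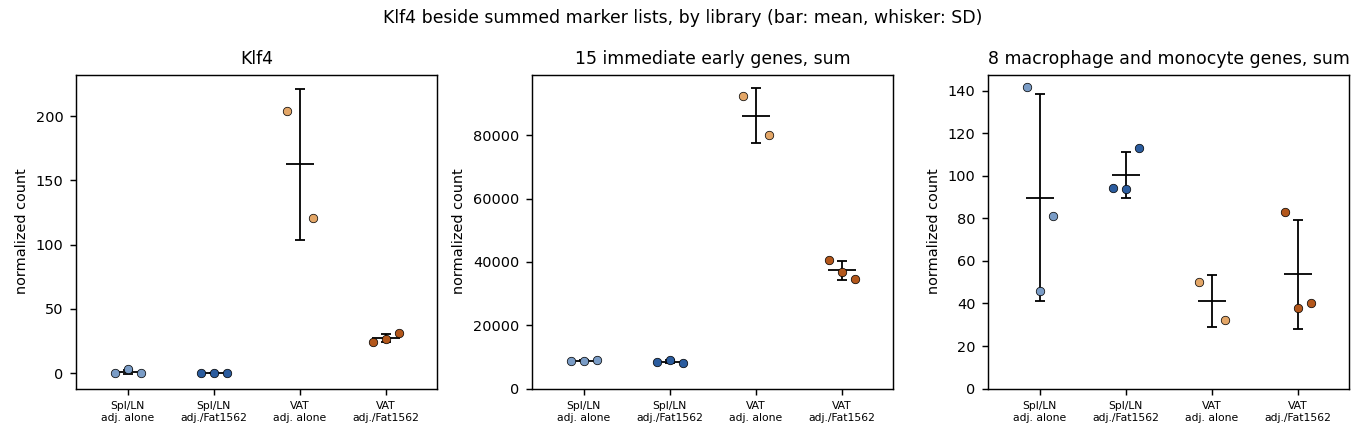
Points are normalized counts in each library (y axes, linear) for Klf4, for the sum of 15 immediate early genes and for the sum of 8 macrophage and monocyte genes, by group on the x axis, with mean (bar) and SD (whisker). Klf4 and the immediate early sum are highest in VAT with adjuvant alone (204 and 121, and 92258 and 80000), and the macrophage sum there is 49.9 and 32.4.

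For each member the genes with the most similar profile were found by the root mean square difference of centred log2(normalized count + 1) over the 11 libraries, among 12931 other genes. Klf4 was closest to Slco2b1, an organic anion carrier (0.404), then the growth factor gene Areg (0.806) and Fos (0.814). Slco2b1 had means of 0.694 and 0 in the Spl/LN groups, 177 in VAT with adjuvant alone and 16 in VAT with Fat1562. Areg had 118, 140, 7331 and 3327 in the same order. The likeness of these genes to Klf4 is what they were chosen for.

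Klf3 was closest to the sialyltransferase gene St6gal1 (0.441), to Cd7 (0.525) and to the ATP-gated channel gene P2rx7 (0.63), each of them lower in VAT. St6gal1 had means of 981 and 605 in the Spl/LN groups and 62 and 55.1 in the VAT groups. Klf6 was closest to the receptor gene Gpr132 (0.18), Irak2 (0.194) and the kinase gene Pim1 (0.21). Gpr132 had means of 323 and 422 in Spl/LN and 1034 and 693 in VAT.

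Klf7 was closest to the chemokine receptor gene Ccr2 (0.162), the kinase gene Jak2 (0.2) and Slc38a2 (0.201). Ccr2 had means of 2288 and 2622 in Spl/LN and 6529 and 4061 in VAT. Klf13 was closest to Acot2 (0.112), Tnk2 (0.115) and Nlrc3, genes with small differences between groups such as the 957, 1005, 1332 and 960 of Nlrc3. For Klf10 the closest were B3galt6, Slc35d2 and Wdr25, for Klf11 Rusc1, 1110051M20Rik and A730017L22Rik, and for Klf9 Dsel, Prickle1 and Pecr. The measure depends on how profiles are scaled, and with each profile scaled to an SD of 1, of the 3 genes named for each member 0 stayed among the closest 3 for Klf6, Klf7, Klf11 and Klf13, 1 for Klf3, Klf4 and Klf10, and 2 for Klf9.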

How the data were processed

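The authors deposited 1 table of raw counts for 52997 genes, made from paired reads of 38 bases. Per the labels' processing notes, STAR 2.5.4 and featureCounts with mm10 were used, while the study's methods name Cuffquant; the annotation and the strand setting are not given in the sources used here. No molecular identifiers are named, so intervals built on counts cover counting error only. All 11 columns matched a label, with 0 left over. Counts were brought to the mean library total, a mean above 10 was asked of 1 group or more, and the 12932 genes left entered edgeR 4.0.16 (R 4.3.3, TMM, quasi-likelihood fit and test, 1 fit of the 4 groups). Benjamini-Hochberg adjustment covered every tested gene, with calls at an adjusted p under 0.05. Errors are SDs between libraries or edgeR's standard errors, and SE was taken from the fold change and F value. Alternatives were other filters, leaving out each library, fitting only the groups compared, a replicate block, DESeq2 1.42.0, limma 3.58.1 after quantile normalization, and median-of-ratios size factors. The members, gene lists and tests were chosen with earlier results of these data known. The text names all members, genes of the lists, and the 3 genes nearest to each member in profile. Positions and shared 38-base stretches came from GENCODE vM21. Of these steps, only the edgeR fit was tested on simulated counts.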

Additional observations from a re-analysis of the deposited data

Results flagged for a closer look

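The change after Fat1562 differed between VAT and Spl/LN for 2 of the 7 tested members, by edgeR's test of the interaction of tissue and peptide. For Klf6 the difference was −0.93 on the log2 scale (SE 0.19, edgeR adjusted p = 0.0105), with all 3 VAT libraries lower and all 3 Spl/LN libraries higher after Fat1562 than any library with adjuvant alone of the same tissue. For Klf13 it was −0.73 (SE 0.15, edgeR adjusted p = 0.0126), with all 3 VAT libraries lower after Fat1562 and overlapping Spl/LN groups. Neither passed the threshold without the first of the 2 VAT libraries with adjuvant alone, which leaves that group with 1 library. The values were then −0.76 (edgeR adjusted p = 0.0853) and −0.71 (adjusted p = 0.0597), over ranges of 1.45e-06 to 0.0853 and 0.000195 to 0.0597 among the 18 alternatives.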

How the results depend on the processing

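Of 649 recomputed values, 620 kept their direction and side of the threshold, and every call between the tissues was kept. In VAT the 2 calls after Fat1562 became 4 (Klf6, Klf7, Klf10 and Klf13) with only the groups compared in the fit and ran from 1 to 3 with each library left out, Klf13 being kept each time. In Spl/LN the count of 0 became 1 (Klf6) with no filter, and the 2 calls of the interaction ran from 0 to 3 with each library left out. With no filter, Klf10 was also called in VAT (log2 −0.53, edgeR adjusted p = 0.0251) and in the interaction (−0.78, adjusted p = 0.0125). The causes of these changes were not tested. Values near 0 changed sign without any call. In VAT after Fat1562, Klf9 moved from 0.00 to −0.02 with a coefficient of variation under 0.7 and to −0.01 with median-of-ratios factors, only the groups compared or DESeq2, and in Spl/LN Klf13 moved from 0.05 to −0.01 with quantile normalization. With each library left out, Klf9 ran from −0.31 to 0.42 in VAT, from −1.29 to 0.08 in Spl/LN and from −0.08 to 1.29 in the interaction, Klf13 from −0.05 to 0.16 and Klf11 from −0.24 to 0.10 in Spl/LN, and Klf3 from −0.73 to 0.12 in the interaction. Where a group was left with 1 library, that library was assumed to vary like the other groups. Quantile normalization changed the calls over all genes between the tissues with adjuvant alone from 1175 higher and 928 lower to 1064 and 1247. Deviations of same-numbered libraries of different groups correlated at −0.0395 to 0.0554 (15 pairs), against −0.0576 to 0.0395 for 30 other pairs. Only Spl/LN and VAT libraries with the same injections could share mice. Of these, same-numbered pairs were at 0.0373 and 0.0303 with adjuvant alone, and at 0.0554, 0.03 and 0.0299 with Fat1562. Pairs with different numbers reached at most 0.0277 there. All of these values are small, and whether same-numbered libraries share a mouse is not stated. With a replicate block 4, 3, 2, 0 and 2 members were called in the 5 comparisons, in the order of the report. Klf4 in VAT with adjuvant alone stayed between 121 and 204 under other scalings and with each library left out. VAT with adjuvant alone had 2 libraries, and Klf9 had few counts, which limits the precision of these values.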
